A study of Bos taurus with 6 samples.

Results

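The plasminogen activator system was described through 5 genes, PLAU, PLAUR, PLAT, SERPINE2 and SERPINB2, which were taken by name from the 17663 genes of the deposited expression table. All 5 were found in the table, and 4 of them had enough counts to enter the test of 13482 genes. The cells were bEFs, fibroblasts grown as primary cultures from cattle fetuses at 50 to 60 days of pregnancy. FT cells carried the exogenous fat-1 transgene, a nematode gene for an enzyme that turns n-6 into n-3 polyunsaturated fatty acids, and came from 3 fetuses. The WT cells were taken from 3 Luxi cattle fetuses without the transgene. There was 1 poly(A) library per fetus, so that n = 3 per group. The promoter of the transgene, the breed of the FT fetuses and whether they were clones of 1 line are not given in the sources used here. The question put to each gene was whether its RNA level differed between FT and WT cells.

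Plasminogen activators are serine proteases that cut plasminogen into plasmin, a protease that dissolves fibrin and degrades matrix proteins around cells. Urokinase (PLAU) works mainly at the cell surface, where it is held by its receptor (PLAUR), and tissue-type activator (PLAT) works best on fibrin. Both are shut off by inhibitors of the serpin family, which form a covalent complex with the protease. In fibroblasts the system takes part in matrix turnover, migration and wound repair.

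Library totals were 63366834, 48167642 and 54204446 counts for FT_1, FT_2 and FT_3. The WT libraries held 69777641, 51310741 and 54271927 counts. FT_1 stood apart from the other FT libraries. Spread between 2 libraries was measured as edgeR's biological coefficient of variation, the part that counting noise does not explain. It was 8.23% between FT_2 and FT_3 and 9.99% to 13.4% between WT libraries. It was 56.9% between FT_1 and FT_2 and 57.6% between FT_1 and FT_3. For this reason the tests of the members and the calls per gene list are given for all 6 libraries and without FT_1.

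The fibroblast label was checked against 12 fibroblast markers, all of which were detected. Their summed level was 6987 FPKM (fragments scaled by gene length and library total) in FT_1, against 17312 in FT_2, 17069 in FT_3 and 17509 to 18085 in the WT libraries. By the mean over all 6 libraries their most abundant gene was VIM, the gene of the filament protein vimentin, while DCN, the decorin gene, was above it in FT_1 and FT_2. Not all 12 followed the sum, since PDGFRA (217.7 FPKM) and THY1 (413 FPKM) were highest in FT_1, while all others were lowest there. The sum of the epithelial markers showed the opposite pattern. The 11 epithelial markers summed to 501.8, 16.6 and 15.9 FPKM in FT_1, FT_2 and FT_3, and to 10.4, 8.07 and 14.3 in WT_1, WT_2 and WT_3. The most abundant in FT_1, the basal keratin KRT5, had 171.5 FPKM in FT_1, 2.57 in FT_2, 1.63 in FT_3 and 0 in every WT library. In the other 5 libraries the cadherin gene CDH1 was the most abundant, at 7.11 to 13.9 FPKM. TP63, a transcription factor of basal epithelium that was picked out after its values were seen, had 8.75 FPKM in FT_1 and at most 0.07 in any other library. CDH1, KRT8, KRT14, KRT15, KRT18 and ESRP1 were also highest in FT_1. CLDN4 was not, with 3.65, 3.39 and 3.82 FPKM in FT_1, FT_2 and FT_3. EPCAM and GRHL2 had at most 0.57 and 0.03 FPKM in any library. In bulk RNA, a change in the share of a cell type and a change of RNA per cell cannot be told apart.

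Of the members, PLAT was lower and PLAUR was higher in FT cells. PLAU did not pass the test. SERPINE2 split the FT libraries, with FT_1 above and FT_2 and FT_3 below all WT libraries. SERPINB2 was barely detected. Over all genes tested, 20.1% were called higher and 18.9% lower in FT cells by edgeR's quasi-likelihood test at a Benjamini-Hochberg adjusted p under 0.05. The 1 member called higher and the 1 called lower, among 4 tested, are therefore close to what the whole table showed. Without FT_1 the shares of all genes were 30.6% and 31.5%, and 1 member was called higher and 2 lower.

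**Figure D1:**
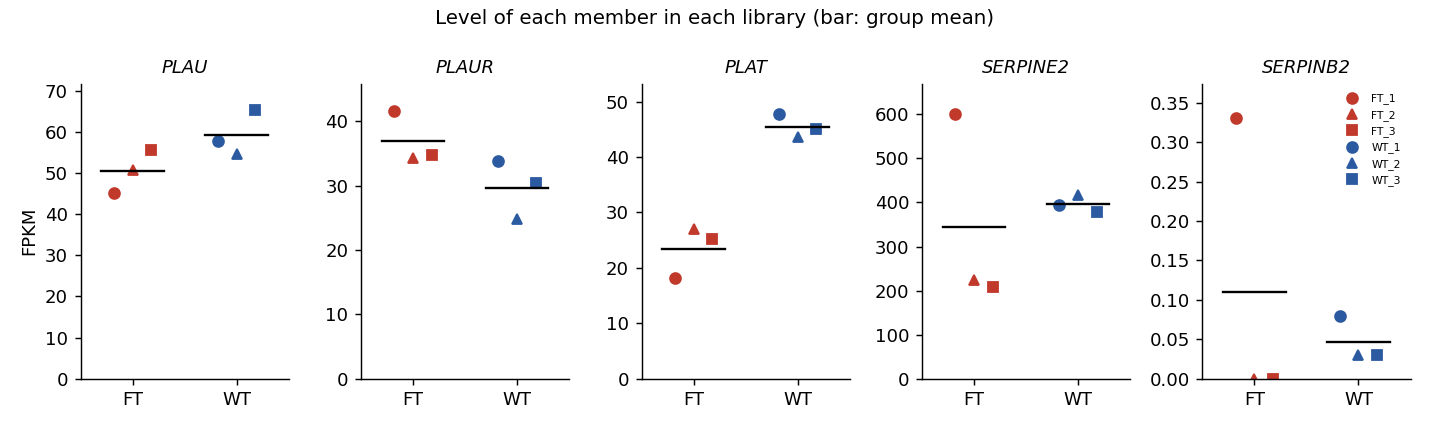
FPKM of the 5 members in each library, with FT in red, WT in blue and a bar at the mean of 3 libraries. PLAT lies between 18.1 and 27.0 in FT cells and between 43.6 and 47.8 in WT cells, and the SERPINE2 value of FT_1 lies above all other libraries.

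PLAU (ENSBTAG00000005947, chromosome 28, 29791112 to 29799836, plus strand) encodes urokinase. These positions are those of the deposited table, whose genome build is not settled, since the submitters' processing notes name only mm8, a mouse build, beside bovine gene identifiers. PLAU had 45.1, 50.8 and 55.6 FPKM in FT_1, FT_2 and FT_3, and 57.8, 54.7 and 65.5 in WT_1, WT_2 and WT_3. The groups overlapped, since FT_3 was above WT_2. The means were 50.5 ± 5.24 (SD, n = 3) and 59.3 ± 5.55 FPKM. The FPKM of all genes summed to 390892 to 407533 in the FT libraries and to 453721 to 467653 in the WT libraries. Comparisons of FPKM between the groups, here and below, include this difference, also in the shares of genes without overlap. The log2 fold change of the counts, FT minus WT, was -0.07 with a standard error of 0.12 (adjusted p = 0.673, edgeR), and 0.01 with a standard error of 0.09 without FT_1. A two-sided exact permutation test of the 3 FT against the 3 WT libraries on log2 CPM (counts scaled to library totals with edgeR's TMM factors) gave p = 0.5. This scale was used for all members.

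PLAT (ENSBTAG00000001244, chromosome 27, 37053715 to 37077724, minus strand), the gene of tissue-type activator, had 18.1, 27.0 and 25.3 FPKM in FT_1, FT_2 and FT_3. It had 47.8, 43.6 and 45.0 FPKM in WT_1, WT_2 and WT_3. Every FT library was below every WT library, as in 36.9% of the genes tested. PLAT fell by 0.79 log2 units, with a standard error (SE) of 0.17 (adjusted p = 0.0134, edgeR), which is a level in FT cells of 0.577 times that in WT cells. The fall was 0.63 with a standard error of 0.07 without FT_1, where the log2 fold change was -0.63 (adjusted p = 3.97e-05, edgeR). Without WT_1 the call was lost, at a log2 fold change of -0.76 and an adjusted p of 0.0569 from edgeR. The exact permutation test gave p = 0.1, the smallest this design allows.

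The pair of activators thus kept a different proportion in the groups. The ratio of PLAU to PLAT in FPKM was 2.49, 1.88 and 2.20 in FT_1, FT_2 and FT_3, and 1.21, 1.25 and 1.46 in WT_1, WT_2 and WT_3. The ratio does not depend on how libraries are scaled. The mean ratio was 2.19 ± 0.305 (SD, n = 3) for FT and 1.31 ± 0.131 for WT, without overlap (two-sided exact permutation p = 0.1).

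PLAUR (ENSBTAG00000013125, chromosome 18, 51865091 to 51878472, minus strand) encodes the urokinase receptor, which is anchored in the membrane by a lipid and has no part inside the cell. Its FPKM values were 41.6, 34.3 and 34.8 in FT_1, FT_2 and FT_3 and 33.8, 24.9 and 30.4 in WT_1, WT_2 and WT_3. Every FT library was above every WT library, as in 21.8% of the genes tested, but FT_2 and WT_1 were only 34.3 and 33.8. PLAUR rose by 0.47 log2 units, with a standard error of 0.14 (adjusted p = 0.0394, edgeR), or 1.38-fold. Without FT_1 the rise was 0.39 with a standard error of 0.12 (adjusted p = 0.015, edgeR). The call was weak. It was lost without any 1 of the other 5 libraries, with an adjusted p from edgeR of 0.0688 without FT_2, 0.0788 without FT_3, 0.0514 without WT_1, 0.0968 without WT_2 and 0.104 without WT_3. It was also lost in limma on log2(FPKM + 1), at a log2 fold change of 0.31 (adjusted p = 0.118). The exact permutation test gave p = 0.1.

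Set against its ligand, the receptor had a higher level in FT cells. The ratio of PLAUR to PLAU in FPKM was 0.923, 0.675 and 0.626 in FT_1, FT_2 and FT_3, and 0.585, 0.455 and 0.464 in WT_1, WT_2 and WT_3. The groups did not overlap (two-sided exact permutation p = 0.1, the smallest this design allows), and FT_1 had the highest value. FT_3 (0.626) and WT_1 (0.585) were close. How often ratios of other gene pairs have no overlap was not determined, for this ratio or for PLAU to PLAT.

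**Figure D2:**
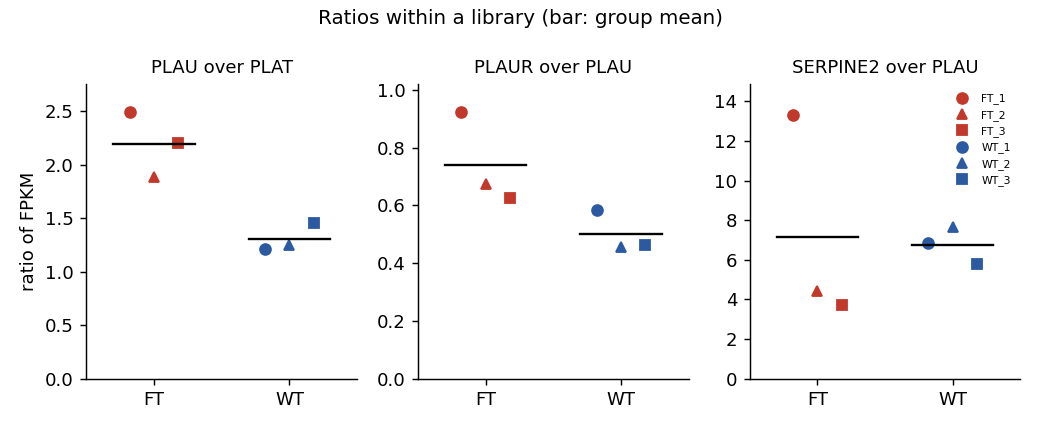
Ratios of FPKM within each library, with FT in red, WT in blue and a bar at the mean of 3 libraries. PLAU over PLAT and PLAUR over PLAU do not overlap between groups, and SERPINE2 over PLAU is 13.3 in FT_1, 4.43 in FT_2 and 3.74 in FT_3.

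SERPINE2 (ENSBTAG00000008717, chromosome 2, 112087760 to 112158159, minus strand) encodes protease nexin-1, a secreted serpin that inhibits thrombin, urokinase and tissue-type activator. It had 601 FPKM in FT_1, 225 in FT_2 and 208 in FT_3. The WT libraries were close together at 395, 418 and 379 FPKM. FT_1 was thus above, and FT_2 and FT_3 below, all WT libraries, and the FT mean of 344 ± 222 FPKM (SD, n = 3) describes none of the FT libraries. The log2 fold change was -0.06 with a standard error of 0.41 over all 6 libraries (adjusted p = 0.926, edgeR; exact permutation p = 0.8). Without FT_1 it was -0.71 with a standard error of 0.07 (adjusted p = 1.34e-05, edgeR). Without FT_2 or FT_3 it was 0.17 or 0.20, and neither passed the test.

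The SERPINE2 level in FT_1 was 2.78 times the mean of FT_2 and FT_3. Among 11254 tested genes with a mean of at least 1 FPKM, 4.43% had a larger ratio of FT_1 to that mean. More than 2-fold differences between FT_1 and that mean were found in 7.70% of these genes upward and in 8.05% downward. The epithelial markers were high in the same library, as given above. The part of the epithelial markers in the SERPINE2 level was not tested.

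**Figure D3:**
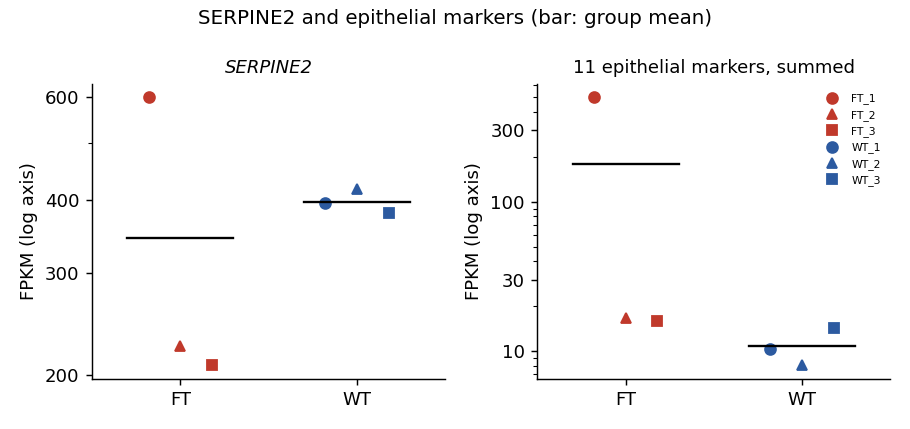
FPKM of SERPINE2 (left) and summed FPKM of 11 epithelial markers (right) in each library on log axes, with FT in red, WT in blue and a bar at the mean of 3 libraries. FT_1 is highest in both, at 601 and 501.8 FPKM.

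SERPINB2 (ENSBTAG00000023198, chromosome 24, 62075443 to 62093177, plus strand) encodes plasminogen activator inhibitor type 2, a serpin that stays mostly inside cells and is best known from macrophages, placenta and keratinocytes. It had a count of 46 in FT_1 and 0 in FT_2 and FT_3, and 12, 4 and 4 in WT_1, WT_2 and WT_3. Low counts in this table piled up at 4, 8 and 12, which took 42.7% of the values from 1 to 12, and a single fragment was taken to be worth about 4 counts, which was not tested. On that reading a floor of 3 fragments, or 12 counts, was used, and it covers counting error only. A count of 0 allows up to 0.249 CPM of the unadjusted library total in FT_2 and 0.221 in FT_3. FT_1 alone was above the floor, and no fold change is given. How reads shared with similar serpin genes were counted is not stated, which matters most at such low counts.

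**Figure D4:**
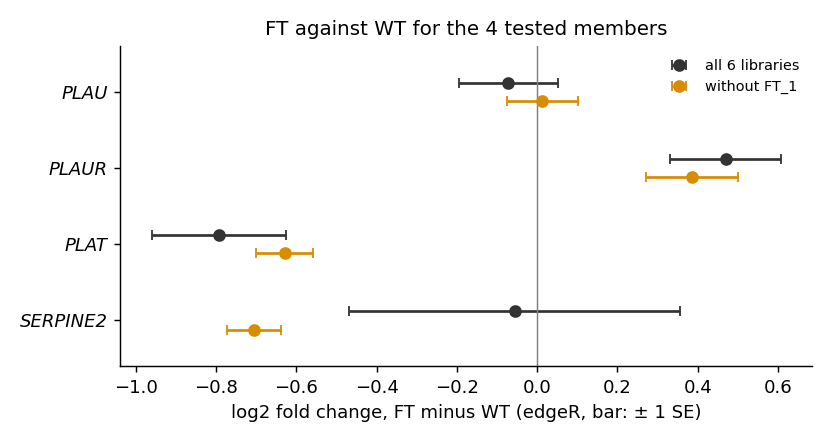
Log2 fold change of the 4 tested members, FT minus WT, from edgeR, with bars of 1 standard error. Black points are from all 6 libraries and orange points are without FT_1, where SERPINE2 moves from -0.06 to -0.71, PLAT from -0.79 to -0.63, PLAUR from 0.47 to 0.39 and PLAU from -0.07 to 0.01.

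The order of the levels in FPKM was SERPINE2, then PLAU, in every library. PLAUR came next and PLAT after it in the 3 FT libraries, while PLAT was above PLAUR in the 3 WT libraries. SERPINB2 was last throughout. Within WT cells, PLAU (59.3 ± 5.55 FPKM) and PLAT (45.5 ± 2.13) were apart by more than their spread, as were PLAT and PLAUR (29.7 ± 4.52). SERPINE2 was among the highest genes, above 99.0% of the table by mean FPKM, and PLAU was above 92.9%.

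The members share annotations in the table. PLAU, PLAUR, PLAT and SERPINB2 carried the KEGG term for complement and coagulation cascades, which 52 genes carried in all. PLAU and PLAT were among 7 genes with the GO term plasminogen activation. Each member lies on a different chromosome, and no other gene of the table overlapped any of them.

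The nearest named neighbours did not all move like the members. MRPL44, a mitochondrial ribosomal protein gene 10.8 kb from SERPINE2, fell by 0.58 log2 units (SE 0.09, adjusted p = 0.00438, edgeR). CADM4, a cell adhesion gene 9.32 kb from PLAUR, rose by 1.65 (SE 0.20, adjusted p = 0.00235, edgeR). Neither neighbour of PLAU passed the test, with log2 fold changes of -0.06 for CAMK2G and 0.34 for VCL, although VCL was called higher without FT_1 (0.46). Beside PLAT, IKBKB had a log2 fold change of 0.19 (adjusted p = 0.245, edgeR) and was called higher without FT_1 (0.28), and AP3M2 had counts in FT_1 only. SERPINB10, 6.16 kb from SERPINB2, had counts of 159 in FT_1, 0 in FT_2 and FT_3 and 173, 129 and 79 in the WT libraries. SERPINB12, IRGC and FAM124B, on the remaining sides, were too low to test.

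Genes with the most similar pattern over the 6 libraries were found by Pearson's r of log2 CPM, among 10162 named genes with a mean of at least 1 FPKM. With 6 libraries in 2 groups high values can be common, though not for every member. An r over 0.95 was found for 736 genes with PLAT, 200 with SERPINE2, 137 with SERPINB2, 81 with PLAUR and 8 with PLAU. The 3 nearest to PLAT were FMO5, SQSTM1 and HADHA (r of 0.9998, 0.998 and 0.997), each of which fell in FT cells. PLAUR was nearest to STYX, CGGBP1 and MIER3 (0.994, 0.992 and 0.990) and PLAU to KLF7, PIKFYVE and MPLKIP (0.975, 0.975 and 0.966). SERPINE2 was nearest to TM4SF1, TGFB3 and CEP78 (0.998, 0.997 and 0.997). The pattern of SERPINB2 rests on its count in FT_1 and on counts at or under the floor, and its nearest genes were FZD6, NAXD and NMNAT2 (0.993, 0.992 and 0.992).

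In what follows, the most abundant gene of a list is the one with the highest mean FPKM over all 6 libraries, which need not lead in each library. The system was then followed outward, from its substrate to the inhibitors, receptors and targets. The lists are small, and their counts of calls were not tested against the shares of all genes, which were 20.1% higher and 18.9% lower with all 6 libraries and 30.6% and 31.5% without FT_1. Every list gene named below as risen or fallen over all 6 libraries was called in the same direction without FT_1. Plasminogen (PLG), which is made mainly in liver, was near the limit of detection, with 0.31, 1.05 and 0.73 FPKM in FT_1, FT_2 and FT_3 and 0.22, 0.14 and 0.23 in the WT libraries. It rose by 1.95 log2 units (SE 0.52, adjusted p = 0.0299, edgeR). Of the 4 tested genes among plasminogen and the proteases that feed the cascade, 1 rose and none fell, against 3 and 1 without FT_1. The most abundant of them was the lysosomal protease gene CTSB, with 168.3, 635 and 617 FPKM in FT_1, FT_2 and FT_3 and 492 to 547 in WT cells.

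Of 8 tested inhibitors of the activators and of plasmin, 3 rose and 1 fell, and the counts were the same without FT_1. SERPING1, the C1 inhibitor gene, rose from 15.9 ± 1.36 FPKM (SD, n = 3) in WT cells to 59.7 ± 14.4 in FT cells, which is 2.06 log2 units (SE 0.18, adjusted p = 0.00102, edgeR). SERPINB6, which encodes an inhibitor inside cells, rose by 1.05 (SE 0.22, adjusted p = 0.0125, edgeR). The alpha-2-antiplasmin gene SERPINF2 was called higher (adjusted p = 0.027, edgeR) on counts of 307, 29 and 53 in FT cells against 11, 8 and 16 in WT cells. Neuroserpin (SERPINI1), an inhibitor of tissue-type activator best known in the brain, was called lower (adjusted p = 0.0303, edgeR), with counts of 8, 0 and 0 in FT cells and 98, 47 and 56 in WT cells.

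Set against urokinase, SERPINE2 followed its own split. The ratio of SERPINE2 to PLAU in FPKM was 13.3, 4.43 and 3.74 in FT_1, FT_2 and FT_3, and 6.83, 7.64 and 5.79 in WT_1, WT_2 and WT_3. The groups overlapped, with an exact permutation p of 0.9.

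All 19 genes with a SERPIN symbol were read as a family. Of 14 tested, 5 rose and 2 fell, and without FT_1, of 15 tested, 5 rose and 4 fell. By that mean the most abundant was SERPINF1, the gene of pigment epithelium-derived factor, which rose from 319 ± 30.2 to 863 ± 288 FPKM (log2 fold change 1.60, SE 0.28, adjusted p = 0.00755, edgeR). SERPINB9, the granzyme B inhibitor gene, rose by 3.04 (SE 0.32) and SERPINB8 fell by 0.81 (SE 0.10). In the WT libraries SERPINH1, at 422 to 572 FPKM, and SERPINE2, at 379 to 418 FPKM, were both higher than SERPINF1. In FT_1 SERPINE2 alone was. The median log2 fold change of the family was 0.06, against 0.03 over all genes tested.

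Of 8 tested genes on a list of reported plasminogen binders at the cell surface, 4 fell and 1 rose, where 18.9% of all genes fell. Their median log2 fold change was -0.96, and where their proteins lie in these cells was not tested. Without FT_1, 6 fell and 2 rose, where 31.5% of all genes fell. ANXA2 and S100A10 encode the annexin A2 and p11 subunits of a complex that binds plasminogen and tissue-type activator. ANXA2, the most abundant of the list in every library except FT_1, where GAPDH was, had 1105, 1076 and 1020 FPKM in FT_1, FT_2 and FT_3 and 4508, 5036 and 4868 in the WT libraries. It fell by 2.01 log2 units (SE 0.12, adjusted p = 5.23e-04, edgeR). S100A10 had 368, 629 and 632 FPKM in FT cells against 1460.2, 1449 and 1604 in WT cells, and fell by 1.31 (SE 0.23, adjusted p = 0.00777, edgeR). The plasminogen receptor gene PLGRKT fell by 1.25 (SE 0.16) and HMGB1 by 1.29 (SE 0.13). TLN1, the gene of the integrin-linked protein talin, rose by 0.80 (SE 0.10).

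**Figure D5:**
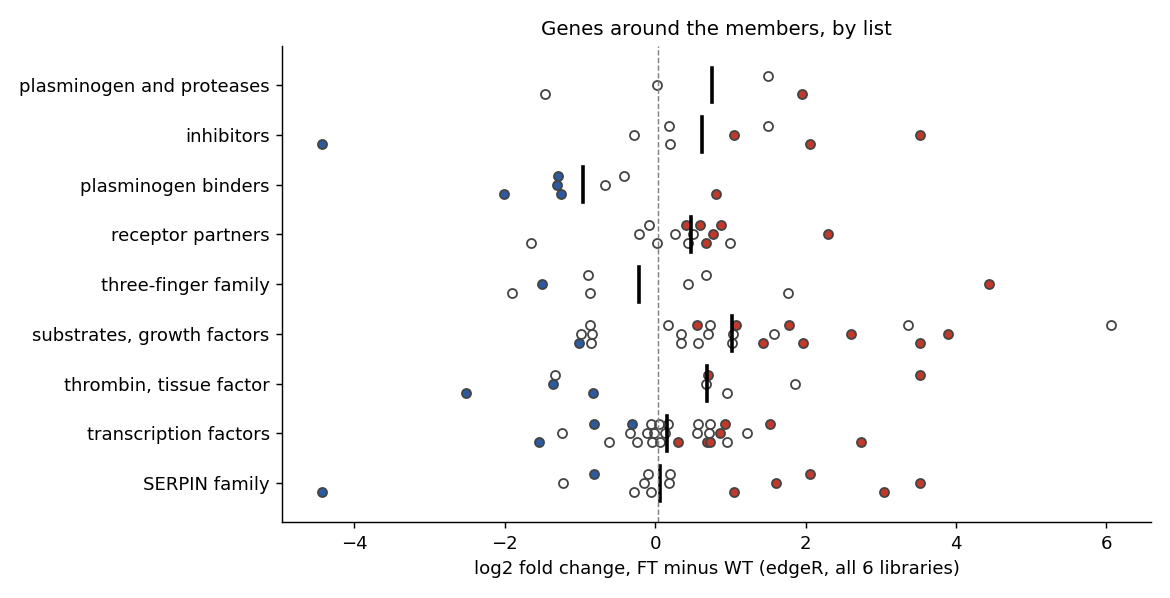
Log2 fold change, FT minus WT, of the tested genes of 9 lists, from edgeR on all 6 libraries. Red points were called higher, blue points lower and open points neither, the black bar is the list's median and the dashed line is the median of all genes, 0.03. Genes at 0 in every library of a group are not drawn.

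Of 14 tested partners and clearance receptors of the urokinase receptor, 6 rose and none fell, where 20.1% of all genes rose. Without FT_1, 8 of 15 tested rose and 3 fell, where 30.6% of all genes rose. LRP1, the receptor that takes up complexes of activator and inhibitor, had 325, 216 and 237 FPKM in FT_1, FT_2 and FT_3 and 157.9, 130.6 and 184 in the WT libraries. It rose by 0.87 log2 units (SE 0.21, adjusted p = 0.0201, edgeR). MRC2, a collagen uptake receptor that associates with the urokinase receptor, rose by 0.77 (SE 0.11, adjusted p = 0.00321, edgeR), and IGF2R rose by 0.68 (SE 0.13). The integrin gene ITGB1, the most abundant of the list, rose by 0.60 (SE 0.11). ITGA3 rose by 2.30 (SE 0.67), and by 1.15 without FT_1, which had 202 FPKM against 41.2 and 43.0 in FT_2 and FT_3.

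PLAUR belongs to the three-finger family of Ly6 proteins. Of 8 other tested genes of the family, 1 rose and 1 fell, with and without FT_1. CD59, an inhibitor of complement and the most abundant of them, fell from 31.9 ± 1.56 to 10.1 ± 2.34 FPKM (log2 fold change -1.50, SE 0.20, adjusted p = 0.00292, edgeR). LY6E was higher in FT cells, at 2.72, 4.12 and 2.93 FPKM against 0.20, 0.30 and 0 in the WT libraries (adjusted p = 0.0211, edgeR).

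Of 25 tested plasmin substrates and growth factors that the cascade releases, 9 rose and 1 fell, with a median log2 fold change of 1.02. Without FT_1, 13 rose and 7 fell, and the median was 0.43. The most abundant was the thrombospondin gene THBS1, except in FT_1, where FN1 was. The rises of largest size with counts in both groups were in FN1 (3.89, SE 0.67), F2R (3.51, SE 0.68) and IGFBP5 (2.60, SE 0.68). FN1 rose by 2.88 without FT_1. The growth factor gene FGF2 fell by 1.02 (SE 0.10).

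In the thrombin and tissue factor axis, which SERPINE2 touches as a thrombin inhibitor, 3 of 10 tested genes rose and 3 fell. Without FT_1, 4 of 11 rose and 5 fell, and the median moved from 0.69 to -0.22. Thrombin's own gene, F2, had counts of at most 4. Its receptor F2R had 1.42, 7.90 and 6.72 FPKM in FT_1, FT_2 and FT_3 and 0.67, 0.51 and 0.39 in the WT libraries. The related receptor F2RL2 rose by 0.70 (SE 0.15), and F2RL1 had counts of 174, 12 and 25 in FT cells and 0 in WT cells. TFPI2, which encodes a matrix-bound inhibitor of plasmin and other proteases and was the most abundant of the list outside FT_1, fell from 199 ± 17.4 to 31.0 ± 16.6 FPKM (log2 fold change -2.52, SE 0.48, adjusted p = 0.00982, edgeR). The protein S gene PROS1 fell by 1.36 (SE 0.23) and the protein C receptor gene PROCR by 0.83 (SE 0.18). Tissue factor (F3) had 54.7 FPKM in FT_1 and 4.66 to 7.77 in the other libraries.

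Of 28 transcription factors known to act on activator genes, 7 rose and 3 fell, against 9 and 8 without FT_1, which is near the shares of all genes (20.1% and 18.9%, and 30.6% and 31.5% without FT_1). The AP-1 genes FOS and JUNB rose by 2.74 (SE 0.22) and 1.52 (SE 0.11), and JUNB was the most abundant of the list by mean, though not in FT_1, WT_1 or WT_2. CEBPB rose by 0.92 (SE 0.18) and JUND by 0.86 (SE 0.20). KLF4 fell by 1.55 (SE 0.13), the glucocorticoid receptor gene NR3C1 by 0.82 (SE 0.11) and ETS2 by 0.31 (SE 0.08).

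Markers of other cell types moved between the groups as well. Of 8 smooth muscle markers, 7 rose, and without FT_1 all 8 rose. Their summed level was 2522, 3820 and 3674 FPKM in FT_1, FT_2 and FT_3 and 1108, 1088 and 1216 in the WT libraries, with ACTA2 the most abundant by mean, ACTG2 up by 4.69 (SE 0.16) and CNN1 up by 3.05 (SE 0.18). Of 5 tested macrophage and leukocyte markers, 2 fell and none rose, and without FT_1 4 of 6 fell. Their sum was 5.35, 10.3 and 9.86 FPKM in FT cells and 27.8, 26.0 and 26.0 in WT cells, with LAPTM5 the most abundant in all but FT_1, where CD14 was. The macrophage receptor gene CD163 had at most 0.18 FPKM in FT cells and 2.69 to 3.14 in WT cells. Of 9 tested epithelial markers 2 rose, and 6 rose without FT_1. Of 12 fibroblast markers 1 rose (PDGFRA), while without FT_1 6 rose and 1 fell (VIM). Of 4 tested mesothelial markers 1 rose (MSLN), and 2 rose without FT_1. Of 4 skeletal muscle markers 1 rose (DES) and 1 fell (MYH3), with 1 and 2 without FT_1. No endothelial marker of 5 was called by edgeR with all 6 libraries, and 3 of 6 fell without FT_1. No Schwann or neural crest marker of 3 was called with all 6 libraries, while without FT_1 1 rose and 1 fell. The summed levels of these lists were 3.23 to 7.54 FPKM for endothelial markers, led by ERG in FT_1 and by FLT1 in the others, and 10.4 to 15.9 FPKM for Schwann and neural crest markers, led by PAX3 in FT_3 and by S100B in the others. The mesothelial sum was 296 FPKM in FT_1, where MSLN had the most (198.7), and 125.1 to 165 in the other libraries, where PDPN had the most, and the skeletal muscle sum was at most 5.80 FPKM. The part of these markers in the levels of PLAT, PLAUR and the other members was not tested.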

How the data were processed

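The authors used HISAT to map paired-end reads and took expression levels from StringTie and edgeR. The submitters' processing notes list Bowtie 0.12.2, HISAT2 2.0, StringTie 1.3.0 and mm8. The FPKM values deposited by the authors are scaled by gene length and library total. The estimated counts deposited by the authors are whole numbers, 1 column per library, and appear derived from read coverage, as low values peak at multiples of 4. They had been planned as raw counts. They needed no rounding.

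The main test was edgeR 4.0.16 (quasi-likelihood, TMM, filterByExpr, FT against WT) in R 4.3.3, with Benjamini-Hochberg adjustment over all genes tested. It was tested on simulated counts that had the same spread for every gene and library. That test does not cover a library that stands apart as FT_1 does. Alternatives used DESeq2 1.42.0, limma 3.58.1 on log2(FPKM + 1), other scalings and filters, a replicate block and each library left out. scipy 1.17.1 gave exact permutation tests. Members and lists were chosen with earlier results of these data known. Named genes were the members, up to 4 called rises and 4 called falls per list, the most abundant gene of each list, direct partners, chromosomal neighbours and the 3 most similar genes. Listed genes missing from the table, VTN among them, were not analysed here.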

Additional observations from a re-analysis of the deposited data

How the results depend on the processing

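Over all genes, 2714 were called higher and 2547 lower. Leaving out 1 library gave 1516 to 4215 and 1531 to 4337, with the most calls without FT_1 and the fewest without WT_1. The number called higher was 1744 in limma on log2(FPKM + 1) with no filter, and an unadjusted p under 0.05 with an absolute log2 fold change over 1 gave 1378 higher and 1208 lower. Of all calls, 51.6% were higher, against 37.6% with library totals only and 34.0% in limma on log2(FPKM + 1). These settings moved the median log2 fold change of all genes by -0.15 and -0.16. Relative to that median, PLAUR was at 0.44, 0.44 and 0.43 and PLAT at -0.83, -0.83 and -0.82 in the main test and these settings. Of the members, 2 were called. The number was 1 with library totals only, with no filter on low counts and in the 3 limma settings, 0 by the unadjusted rule, and 0 to 3 with 1 library left out. The PLAUR log2 fold change lost its call with library totals only (0.32), with no filter on low counts (0.46) and in limma with 1 added (0.31, with and without filter) or 0.1 added (0.32). With 1 library left out it ran from 0.35 to 0.57. The range was -0.91 to -0.63 for PLAT, whose call was lost without WT_1, and -0.16 to 0.0131 for PLAU, which changed sign without FT_1 (0.0131) and without WT_3 (0.00384) and was at -0.22 with library totals only and -0.23 in the 3 limma settings. It was -0.71 to 0.20 for SERPINE2, which was called without FT_1 and changed sign without FT_2 (0.17) or FT_3 (0.20). The causes were not tested. Adjusted p over all alternatives ran from 0.012 to 0.151 for PLAUR, from 3.97e-05 to 0.0569 for PLAT and from 1.34e-05 to 0.979 for SERPINE2. SERPINB2 did not enter the main test, so it has no value here. Libraries of the same number did not deviate together (r of -0.001, -0.020 and 0.018 over 13482 genes). With 3 libraries per group and FT_1 far from the other FT libraries, this cannot decide whether the numbers pair the fetuses. With a replicate block, 1838 genes were called higher and 1741 lower, and PLAT was at -0.82, PLAUR at 0.48, PLAU at -0.07 and SERPINE2 at -0.23, with no call of a member changed. Dividing counts by 4, chosen after seeing the data, gave 2757 and 2581 and the same 2 members called.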
